A study of Mus musculus with 55 samples.

Results

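The hearts of 13 wild-type (WT) mice that had received a triglyceride of one C18 fatty acid were compared along the number of double bonds per acyl chain. These were 4 hearts after triolein (1 double bond, oleic acid), 5 after trilinolein (2, linoleic acid) and 4 after trilinolenin (3, linolenic acid), out of 55 hearts in the series. The arrays were chosen by their labels alone, and no control array entered the fit. Each array was hybridised with RNA of 1 whole heart, so a level is that of mRNA in the mixed tissue, and fewer cells of a type cannot be told apart from less RNA per cell.

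All 13 mice were males of substrain 129S1/SvImJ. They were kept on an AIN76A diet in which olive oil had taken the place of corn oil, so a diet rich in oleic acid preceded every gavage. The labels give their age both as 9 to 12 weeks and as 2 to 6 months. After a 4 h fast each mouse was given 400 µL of one pure triglyceride by gavage, and the heart was removed 6 h later. The 3 triglycerides therefore match in volume, time and chain length (18 carbons), and differ in the number of double bonds and, with it, in where those bonds lie. The isomer of linolenic acid is not named in the labels. Set beside them, and outside the fit, were 3 WT control hearts (carboxymethyl cellulose by the treatment protocol, "none" by another label) and 5 WT hearts after tridocosahexaenoin (22 carbons and 6 double bonds). The same 3 triglycerides given to mice lacking the nuclear receptor PPARα (KO, 129S4/SvJae, 5 hearts each) served as 15 arrays outside the selection. The 2 genotypes differ in substrain as well, so a difference between them is one of both.

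Triglycerides from a meal are split in the gut, repackaged and delivered to the heart as fatty acids, which the heart burns as its main fuel. Polyunsaturated chains carry methylene groups between their double bonds that oxidise readily, whereas the single double bond of oleic acid is far less prone to this. Electrophilic products of lipid oxidation are known activators of NRF2, a transcription factor that drives antioxidant genes, and free fatty acids are ligands of PPARα, which drives genes of fatty acid oxidation.

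The array measured 18194 genes by name. A gene was tested if its signal passed 20 (linear) in 4 or more of the 13 hearts, and 7779 did. The array medians lay between 2.56 and 2.61 (log2), 29.1% to 30.1% of probe sets exceeded 20, and array pairs correlated at 0.993 to 0.996. The slope is the change in log2 level per added double bond, given with its standard error (SE) over 13 arrays. With 4, 5 and 4 arrays it equals the difference between trilinolenin and triolein divided by 2, so the middle group enters its error but not its size. A gene is called at an adjusted p under 0.05 from limma, Benjamini-Hochberg over all genes tested. Every array is labelled as a separate heart, and the spread behind the p-values is that between hearts.

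The slope was called in 66 of 7779 genes (0.848%), of which 44 rose with the number of double bonds (0.566%) and 22 fell (0.283%). At an unadjusted p under 0.05 there were 1016 genes, where 388.95 would be counted if no gene had a slope. Of the 66 called genes, 30 differed by over 1.5-fold between triolein and trilinolenin, and the median size was 1.46-fold, with a range of 1.21-fold to 7.46-fold. The triolein and trilinolenin hearts did not overlap in 65 of the 66, 44 rises and 21 falls, beside 6.57% of all genes (3.23% upward and 3.34% downward), a property the slope itself selects. All 66 kept their sign with any 1 array left out, which is certain for the 65 whose ends do not overlap. The number called depended on single hearts. It was 11 without triolein replicate 2, 12 without trilinolenin replicate 2 or 4, and 20 without trilinolenin replicate 3. It was 26 without triolein replicate 4 and 28 without trilinolein replicate 3. Without trilinolein replicate 1 or 4 or trilinolenin replicate 1 it was 29 in each case, and without trilinolein replicate 2 it was 35. Leaving out triolein replicate 3 gave 49, trilinolein replicate 5 gave 56 and triolein replicate 1 gave 68. In all 13 such fits 8 genes stayed called, namely the rises Hmox1, Rasd1, Fam214a, Fosl2, Arrdc3 and Slc46a3 and the falls Perm1 and Myocd (Myocd was singled out after its values were seen). Near the threshold, Mri1, Sesn1 and Art1 were the last called (adjusted p = 0.0496 in each) and Tmtc1, Kcnj5 and Gja3 the first not called (0.0518, 0.0536 and 0.0552).

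**Figure D1:**
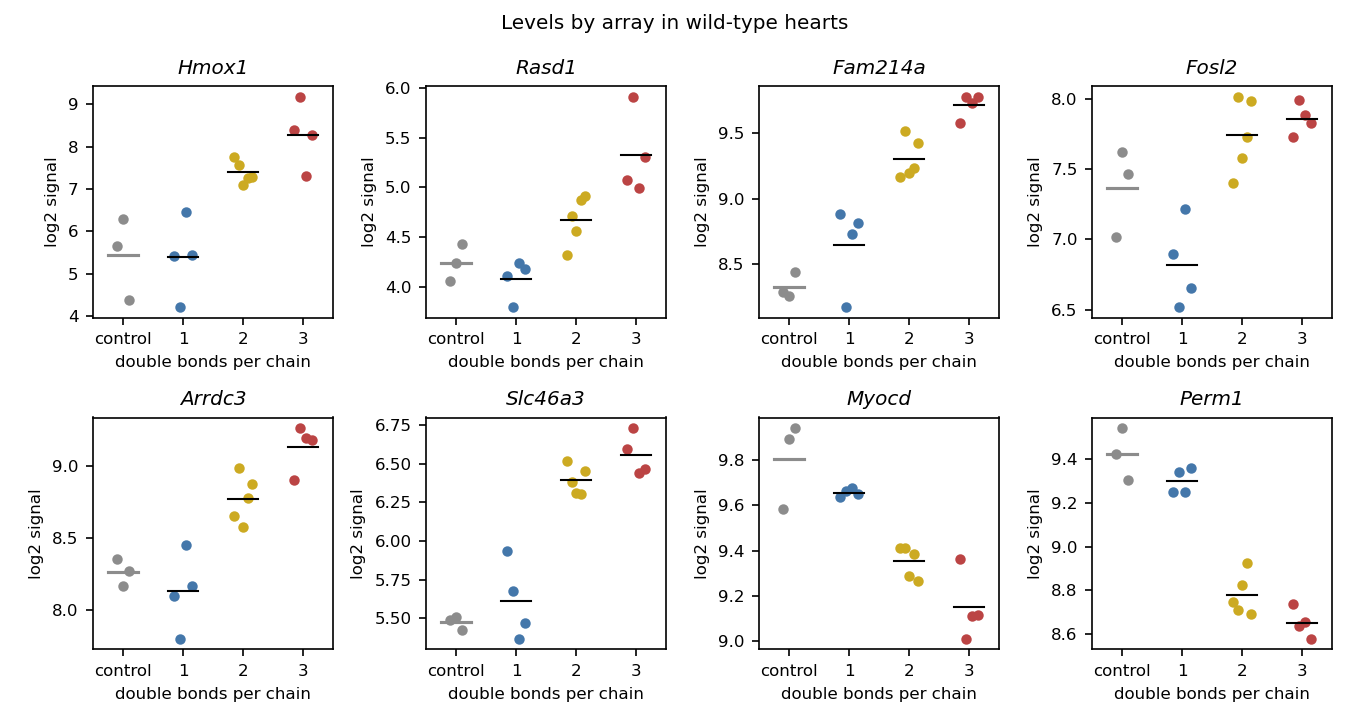
Log2 signal of each WT heart (points) and group mean (lines) for the 8 genes called with any 1 array left out, against double bonds per chain (1 triolein, 2 trilinolein, 3 trilinolenin), with the 3 control hearts in grey. Each panel has its own vertical axis, which does not start at 0. The triolein and trilinolenin points do not overlap in any panel, and for Hmox1 the group means climb from 5.39 to 8.29.

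The gene with the steepest slope was Hmox1, which encodes heme oxygenase 1, the enzyme that breaks down heme and a classical NRF2 target. Its log2 level was 5.43, 4.22, 6.46 and 5.44 in the triolein hearts. It was 7.76, 7.57, 7.11, 7.25 and 7.28 in the trilinolein hearts, and 8.39, 9.18, 7.31 and 8.27 in the trilinolenin hearts. Every trilinolein and trilinolenin heart lay above every triolein heart, while trilinolein and trilinolenin overlapped. Its slope was 1.45 ± 0.21 per double bond (adjusted p = 0.0113), a 7.46-fold difference between the ends. The 3 control hearts averaged 5.45, close to triolein, and the tridocosahexaenoin hearts averaged 8.12. Without the 3 hearts of lowest atrial marker level (below) its slope was 1.43 and its adjusted p 0.0591.

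Alas1, the first and rate-limiting enzyme of heme synthesis, showed the steepest fall. Its log2 level was 9.45, 10.14, 8.81 and 9.64 after triolein, 8.96, 8.67, 8.70, 8.79 and 8.13 after trilinolein, and 8.38, 8.09, 8.22 and 8.11 after trilinolenin. The trilinolenin hearts all lay below the triolein hearts, and 1 trilinolein heart (8.13) lay within the trilinolenin range. The slope was -0.65 ± 0.11 (adjusted p = 0.0216), a 2.48-fold fall. Its adjusted p reached 0.0736 without trilinolenin replicate 2, 0.0551 without trilinolenin replicate 3, 0.0587 without trilinolenin replicate 4, 0.0643 without triolein replicate 2 and 0.0555 without triolein replicate 4. It was 0.0834 without the 3 hearts of lowest atrial marker level, and the slope in these fits ran from -0.68 to -0.55.

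Among the 27 tested NRF2 target genes 2 rose (Hmox1 and Osgin1) and none fell, beside 0.566% rising and 0.283% falling of all genes tested. At an unadjusted p under 0.05 by limma, 10 had a slope above 0 and 0 below, beside 1016 of 7779 genes in either direction. In 21 the slope was above 0, beside 48.9% of all genes, and the list median was 0.053 beside -0.0017. These shares of all genes also apply beside the counts of the lists below. Osgin1, an oxidative stress-induced growth inhibitor, had a slope of 0.21 ± 0.04 (adjusted p = 0.0469), with a triolein mean of 3.94 that lies below the brightness minimum of 4.32, so its size is not exact. Gclm, a subunit of the enzyme that limits glutathione synthesis, had a slope of 0.50 ± 0.14, which was not called (adjusted p = 0.111). Nqo1, the quinone reductase often used as an NRF2 marker, had a slope of -0.0021 ± 0.07 and Txnrd1, a thioredoxin reductase, one of 0.03 ± 0.05, neither of them called; Gclm, Nqo1 and Txnrd1 were picked from the list after their values were seen. Of 19 genes of lipid peroxide and aldehyde defence none was called by limma and none had an unadjusted p under 0.05.

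Several other rises were steep. Pnpla7, a lysophospholipase of the patatin-like family, was at 6.45, 6.01, 5.77 and 5.95 after triolein, at 6.69, 6.68, 6.53, 6.79 and 7.64 after trilinolein, and at 7.10, 7.42, 7.78 and 7.27 after trilinolenin. Its trilinolein hearts lay above all triolein hearts, and only trilinolein replicate 5 reached into the trilinolenin range. The slope was 0.67 ± 0.11 (adjusted p = 0.0191, 2.54-fold). For Pnpla7 the adjusted p was 0.0702, 0.0551 and 0.0506 without trilinolenin replicate 2, 3 or 4, 0.0697 without triolein replicate 2 and 0.0591 without the 3 hearts low in atrial markers, with slopes of 0.61 to 0.72. Slc46a3, a carrier of the lysosomal membrane, was at 5.94, 5.67, 5.37 and 5.47, then at 6.52, 6.38, 6.31, 6.31 and 6.45, and then at 6.60, 6.73, 6.44 and 6.46 after triolein, trilinolein and trilinolenin. Here most of the change lay between triolein and trilinolein, with a slope of 0.47 ± 0.06 (adjusted p = 0.00346). Mt2, a metallothionein that binds zinc and is induced by metals, glucocorticoids and oxidative stress, had a slope of 0.49 ± 0.10 (adjusted p = 0.0432) with means of 9.51, 10.06 and 10.49.

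The 250 bases before the RefSeq start of these 3 rising genes are printed because each holds the core of the antioxidant response element, the sequence NRF2 binds. They are from build GRCm38.p6, 5′ to 3′ on the gene's own strand, and capitals mark the matches. Pnpla7 lies at chr2:24975783-24976032 (+), Slc46a3 at chr5:147894816-147895065 (-) and Mt2 at chr8:94172368-94172617 (+).
Pnpla7: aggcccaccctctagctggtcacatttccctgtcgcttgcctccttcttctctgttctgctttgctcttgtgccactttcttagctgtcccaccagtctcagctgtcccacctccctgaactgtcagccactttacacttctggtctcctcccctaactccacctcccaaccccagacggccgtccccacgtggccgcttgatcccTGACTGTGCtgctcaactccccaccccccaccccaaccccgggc
Slc46a3: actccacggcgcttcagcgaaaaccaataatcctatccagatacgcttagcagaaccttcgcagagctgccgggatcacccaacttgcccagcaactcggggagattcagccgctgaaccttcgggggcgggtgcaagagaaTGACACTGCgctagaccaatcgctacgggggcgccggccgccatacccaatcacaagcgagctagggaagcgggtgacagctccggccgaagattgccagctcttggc
Mt2: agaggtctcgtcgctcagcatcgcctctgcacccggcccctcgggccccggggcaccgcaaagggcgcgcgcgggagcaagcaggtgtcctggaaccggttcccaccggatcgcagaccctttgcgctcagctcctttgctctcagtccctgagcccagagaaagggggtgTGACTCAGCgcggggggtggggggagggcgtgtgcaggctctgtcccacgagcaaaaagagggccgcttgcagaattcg
The core searched was TGACNNNGC, on both strands. It was found in 10 of the 38 rising genes that had an upstream window (26.3%), in 0 of 16 falling genes with one, and in 902 of 6396 tested genes with one (14.1%). The AP-1 site TGANTCA, which overlaps the core in Mt2, was in 4 of 38 rising genes (10.5%), 1 of 16 falling genes (6.25%) and 5.14% of all tested genes. A FoxO site, GTAAACA, was in 1 rising gene (Rsrp1) and 2.71% of all, and a cAMP response element, TGACGTCA, in 1 rising gene (Tspyl4) and 3.28% of all. The estrogen-related receptor site TCAAGGTCA, a glucocorticoid receptor site and a PPAR direct repeat were in none of the called genes, and in 0.281%, 0.391% and 0.0313% of all. A match shows only that these letters stand in the window, and the motifs were chosen after the slopes were known. Hmox1, Rasd1 and Myocd had no entry in the table of windows.

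Of the gene lists, that of FoxO targets and muscle atrophy held the most called members. FoxO factors are restrained by insulin signalling and drive genes of protein breakdown, autophagy and cell cycle arrest. Of 24 tested members 5 rose (Fbxo32, Gabarapl1, Sesn1, Ccng2 and Cdkn1b) and none fell, beside 0.566% and 0.283% of all genes tested. In 22 the slope was above 0, beside 48.9% of all genes. At an unadjusted p under 0.05 by limma, 14 had a slope above 0 and 0 below, beside 1016 of 7779 genes in either direction. The list median was 0.15. Gabarapl1, which builds autophagosomes, was at 10.03, 9.63, 10.00 and 9.87 after triolein, at 9.95, 10.27, 10.35, 10.32 and 10.80 after trilinolein, and at 10.52, 10.83, 10.58 and 10.54 after trilinolenin. The ends did not overlap, and the trilinolein hearts spanned the gap between them. Cdkn1b, the cell cycle inhibitor p27, had means of 8.34, 8.71 and 8.91 and a slope of 0.28 ± 0.05 (adjusted p = 0.0191), and it was called in 10 of the 13 fits without 1 array. Its adjusted p was 0.0721 and 0.0506 without trilinolenin replicate 2 or 4, 0.0697 without triolein replicate 2 and 0.0591 without the 3 hearts low in atrial markers. Its other probe set was dim (mean 2.74), and the mean of both gave an adjusted p of 0.470. Fbxo32, the muscle ubiquitin ligase atrogin-1, had a slope of 0.17 ± 0.04 (adjusted p = 0.0492) and was called in 1 of the 13 fits without 1 array, as Sesn1 and Ccng2 were in 2 and Gabarapl1 in 3. The other Fbxo32 probe sets gave slopes of 0.34 and 0.46. Trim63, the partner ligase MuRF1, had a slope of 0.16 ± 0.05 and Foxo3 one of 0.21 ± 0.05, and neither was called (adjusted p = 0.157 and 0.0744); both were picked after their values were seen.

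Glucocorticoid responsive genes share Foxo1, Foxo3 and Klf15 with that list. Of 22 tested, 1 rose (Mt2) and none fell, beside 0.566% and 0.283% of all genes tested. In 19 the slope was above 0, beside 48.9% of all genes, and the median was 0.17. At an unadjusted p under 0.05 by limma, 12 had a slope above 0 and 0 below, beside 1016 of 7779 genes in either direction. Fkbp5, a chaperone of the glucocorticoid receptor induced by the hormone itself, was at 8.48, 7.73, 8.20 and 8.53 after triolein, 8.44, 8.93, 7.89, 8.70 and 8.22 after trilinolein, and 9.10, 8.55, 8.37 and 9.15 after trilinolenin. The 3 groups overlapped, and its slope of 0.28 ± 0.12 was not called (adjusted p = 0.343). Its control mean, 6.99, lay below every one of the 13 hearts, but the control hearts spread widely, at 6.10, 6.74 and 8.12. The last of these lay above triolein replicate 2 (7.73) and trilinolein replicate 3 (7.89). Rasd1, a small GTPase first described as induced by dexamethasone, is not a member of this list. Rasd1 was at 4.11, 3.79, 4.24 and 4.17, then at 4.32, 4.72, 4.56, 4.87 and 4.91, then at 5.08, 5.92, 5.00 and 5.31 along the series. It was 1 of 3 genes, with Fam214a and Ing1 (Ing1 outside the naming rule), in which the 3 groups were ordered with no overlap, 0.0386% of all genes. Its slope was 0.62 ± 0.09 (adjusted p = 0.0127), but its triolein mean of 4.08 lay below the brightness minimum.

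Chac1, which degrades glutathione and is a target of the ATF4 branch of the stress response, had means of 4.65, 5.47 and 5.81 and a slope of 0.58 ± 0.11 (adjusted p = 0.0430). It was the 1 called gene among 21 of the integrated stress and unfolded protein response, whose median was -0.02. Fosl2, a subunit of AP-1, was at 6.89, 6.52, 7.22 and 6.65 after triolein, 7.40, 8.02, 7.58, 7.73 and 7.99 after trilinolein, and 7.73, 8.00, 7.89 and 7.83 after trilinolenin. It was the 1 called of 19 immediate early genes, with a slope of 0.52 ± 0.08 (adjusted p = 0.0128). Its control mean of 7.37 lay above all 4 triolein hearts, though control replicate 1 (7.02) lay below triolein replicate 3 (7.22). Arrdc3, an alpha-arrestin that acts on beta-adrenergic receptors, rose by 0.50 ± 0.07 (adjusted p = 0.00493). Fam214a rose by 0.53 ± 0.07 (adjusted p = 0.00493), from a triolein mean of 8.65 to a trilinolenin mean of 9.72. Ccrl2, an atypical chemerin receptor, rose by 0.56 ± 0.10, Art5, an ADP-ribosyltransferase, by 0.38 ± 0.06, and Limd1, a LIM domain scaffold, by 0.37 ± 0.07.

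Among the falls, Perm1, a muscle regulator of mitochondrial genes that acts with PGC-1 and the estrogen-related receptors, had the smallest adjusted p of all genes. It was at 9.25, 9.34, 9.25 and 9.36 after triolein, at 8.75, 8.71, 8.83, 8.92 and 8.69 after trilinolein, and at 8.74, 8.64, 8.65 and 8.58 after trilinolenin. All 9 polyunsaturated hearts lay below the 4 triolein hearts and below the control mean of 9.42. The slope was -0.32 ± 0.03 (adjusted p = 0.00158). It was the 1 called of 17 genes of PPAR and RXR receptors and coactivators. In that list 6 genes had a slope below 0 at an unadjusted p under 0.05 and none above, beside 1016 of 7779 genes in either direction. The list median was -0.05. Ppara itself had a slope of -0.16 ± 0.06 (adjusted p = 0.299), and its other probe sets gave -0.01 and 0.01.

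Fgf16, a growth factor of heart muscle, was at 5.19, 6.2, 5.41 and 6.10 after triolein, 4.93, 5.01, 5.13, 5.05 and 4.14 after trilinolein, and 4.74, 4.37, 4.47 and 4.47 after trilinolenin. It fell by 0.61 per double bond on the log2 scale (adjusted p = 0.0430), the 1 called of 13 fetal and stress genes. Its triolein hearts spanned the control mean of 6.00 and its trilinolenin hearts lay near the tridocosahexaenoin mean of 4.42. Nr1d1, the clock repressor REV-ERBα, fell by 0.56 (adjusted p = 0.0496) and was called in 2 of the 13 fits without 1 array. Of 15 clock genes it was the 1 called, beside 0.848% of all genes tested. At an unadjusted p under 0.05 by limma, 5 clock genes had a slope above 0 and 3 below, beside 1016 of 7779 genes in either direction. Rrad, a small GTPase that restrains L-type calcium channels, had a slope of -0.44 ± 0.09. Adra1b, the alpha-1B adrenergic receptor, had one of -0.40 ± 0.08, with trilinolenin mean 4.12 below the brightness minimum. Its control mean of 4.11 lay near that of trilinolenin and below the triolein mean of 4.92. Rasl11b (-0.37 ± 0.08), Lrrc3b (-0.32 ± 0.05), the nuclear import factor Kpna2 (-0.32 ± 0.06), the scaffold Magi3 (-0.27 ± 0.06) and the co-chaperone Dnajb5 (-0.31 ± 0.06) also fell. Dnajb5 was the 1 called of 21 heat shock chaperones.

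Tpm2, a tropomyosin of smooth and slow muscle, was at 7.33, 7.39, 7.18 and 7.32 after triolein, 6.97, 6.65, 6.78, 6.48 and 6.82 after trilinolein, and 6.68, 6.74, 6.86 and 6.78 after trilinolenin. It fell by 0.27 per double bond (adjusted p = 0.0216), all of it between triolein and trilinolein. Its control mean of 6.71 lay near those of trilinolein (6.74) and trilinolenin (6.76), and the triolein mean of 7.30 stood above all 3. Myocd, the coactivator myocardin of smooth and heart muscle, fell from a mean of 9.66 to 9.35 and 9.15, with a slope of -0.25 ± 0.04 (adjusted p = 0.0127). Markers of smooth muscle and pericytes moved the same way, 7 of 10 being bright enough to test. Their mean level per heart was 8.23 to 8.45 after triolein, 7.92 to 8.10 after trilinolein and 7.95 to 8.25 after trilinolenin. In the control hearts it was 7.93 to 8.27. The slope was -0.14 (exact permutation p = 0.0266 over 90090 assignments, 0.239 adjusted over 9 measures). By the median of the markers in place of their mean it was -0.32 (exact permutation p = 0.00781, 0.0547 adjusted). Tagln, 1 of the 7 markers, had that same slope, so the median here reflects 1 gene at both ends. Cnn1, Cspg4 and Lmod1 were too dim to test. The part of that tissue in the Tpm2 and Myocd slopes was not tested. Ap1g1, called as a fall of 0.19, had a second probe set with a slope of 0.06, so its probe sets disagree.

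**Figure D2:**
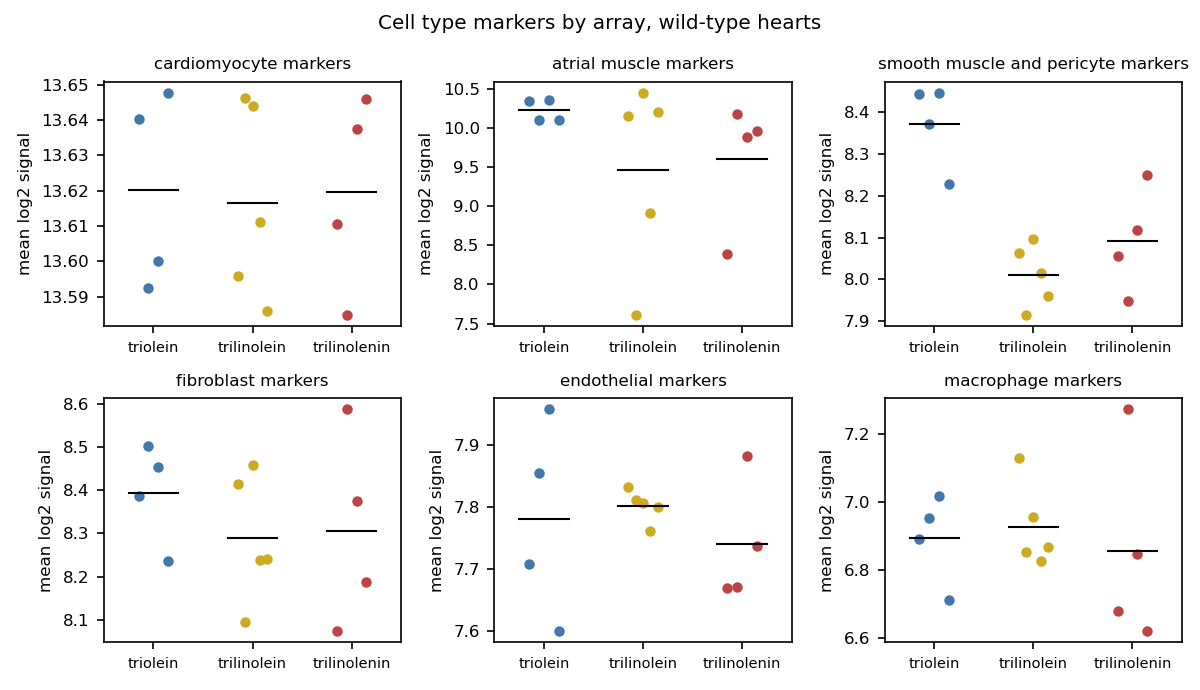
Mean log2 signal of the tested markers of 6 cell types in each WT heart (points) with group means (lines), by triglyceride; vertical axes differ between panels and do not start at 0. Cardiomyocyte markers stand at 13.6 in every heart, smooth muscle markers are highest after triolein, and 3 hearts are low in atrial markers.

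The labelled tissue was checked by its markers. All 12 cardiomyocyte markers were tested, with a mean level of 13.6 in each group and a slope of -0.00017. Atrial muscle markers, 6 of 7 tested with Bmp10 too dim, averaged 10.2 after triolein, 9.47 after trilinolein and 9.60 after trilinolenin. Trilinolein replicates 2 and 4 stood at 7.61 and 8.92 and trilinolenin replicate 1 at 8.38, against 9.88 or more in all other hearts. The slope was -0.31 (exact permutation p = 0.348). Without these 3 hearts, an alternative chosen after seeing the data, 12 genes were called for the slope, in a fit of fewer arrays. No lymphocyte marker was bright enough to test, and of adipocyte markers Adipoq, Lep, Retn, Cidec, Ucp1 and Elovl3 were too dim. The Actb 3′ minus 5′ difference, a measure of RNA quality, had a slope of -0.05 (exact permutation p = 0.0928).

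PPAR target genes gave no call. Of 36 tested PPAR target genes none was called by limma, and the median was -0.01. At an unadjusted p under 0.05, 1 had a slope above 0 and 4 below, beside 1016 of 7779 genes in either direction. Angptl4, a secreted inhibitor of lipoprotein lipase, was at 8.02, 7.85, 9.46 and 7.95 after triolein, at 8.07, 7.21, 9.13, 8.36 and 8.10 after trilinolein, and at 7.03, 7.41, 9.05 and 7.57 after trilinolenin. The 3 groups overlapped widely, and all 13 hearts lay above the control mean of 6.01. Its slope was -0.28 (95% interval -0.79 to 0.23), so these hearts do not tell a fall from a small rise. For Ucp3, a mitochondrial carrier, the interval was -0.24 to 0.11, for Pdk4, a brake on glucose oxidation, -0.05 to 0.26, and for Decr1, which reduces double bonds of polyunsaturated acyl-CoA, -0.13 to 0.05. Acot1, an acyl-CoA thioesterase, had an interval of -0.34 to 0.11 and Plin2, a lipid droplet coat, one of 0.01 to 0.24 (adjusted p = 0.348).

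Enzymes that handle the chains themselves showed no call either. None of 21 genes of mitochondrial fatty acid oxidation, 18 of peroxisomal and unsaturated fat oxidation, 30 of uptake and lipid droplets, 15 of synthesis, desaturation and elongation, 10 of cholesterol synthesis and 34 subunits of oxidative phosphorylation was called by limma. At an unadjusted p under 0.05 these lists held 1, 1, 8, 2, 1 and 0 genes, beside 1016 of all 7779 genes tested. Nor did limma call any of 8 LXR targets, 32 genes of glucose use, 15 hypoxia genes, 9 inflammation genes, 14 interferon response genes, 24 contractile and calcium handling genes and 14 genes of eicosanoid metabolism, which held 3, 3, 5, 2, 1, 3 and 4 genes at an unadjusted p under 0.05. Scd2, a desaturase that makes oleic acid, came closest. It was at 7.83, 8.03, 7.56 and 7.75 after triolein, 7.37, 7.37, 7.25, 7.09 and 6.99 after trilinolein, and 7.39, 7.42, 7.14 and 7.13 after trilinolenin. The ends did not overlap, the control mean was 8.15, and the slope of -0.26 ± 0.06 missed the threshold (adjusted p = 0.0552).

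**Figure D3:**
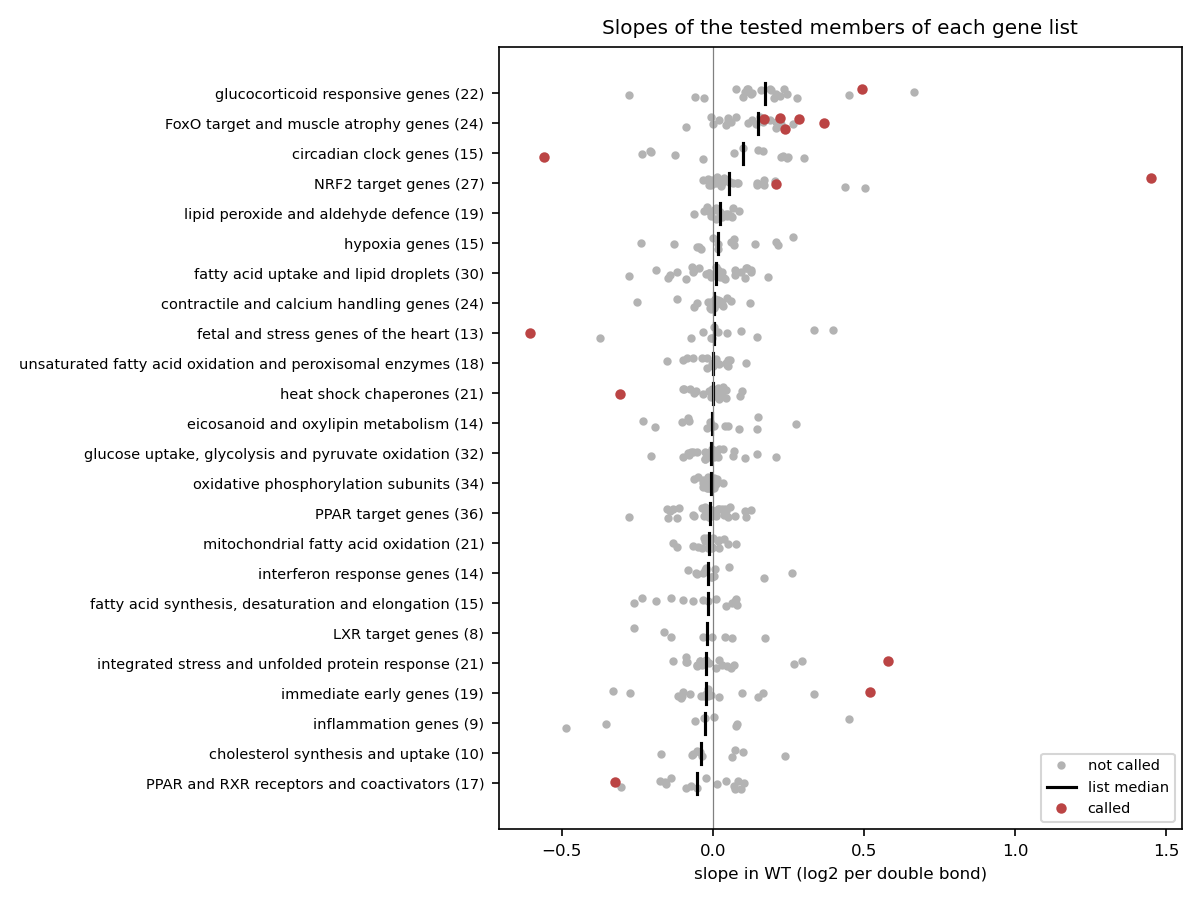
Slope in WT hearts (log2 per double bond, horizontal axis) of the tested members of each gene list (points, called members in red), with the list median as a black bar and the number tested in brackets. The medians of the glucocorticoid and FoxO lists are 0.17 and 0.15, while those of the PPAR target and oxidation lists lie near 0.

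The 3 pairs of triglycerides were then compared directly, with p-values adjusted over all genes and the 3 pairs together. Trilinolenin against triolein is the slope times 2, with the same unadjusted p, so it repeats the slope test under another adjustment. Trilinolein differed from triolein in 9 genes (0.116%; 6 higher, or 0.0771%, and 3 lower, or 0.0386%), trilinolenin from triolein in 21 (0.27%; 16 higher, or 0.206%, and 5 lower, or 0.0643%), and trilinolenin from trilinolein in 0 (0%). For that last pair limma gave 297 genes at an unadjusted p under 0.05, fewer than the 388.95 that would be counted with no difference, and a smallest adjusted p of 0.0835. The interval of a single difference was as wide for it as for trilinolein against triolein, a median of 0.21 (log2) to either side, so most genes could still differ by that much. For Hmox1 the interval ran from 0.05 to 1.74, for Perm1 from -0.26 to 0.01, for Fosl2 from -0.20 to 0.44 and for Slc46a3 from -0.06 to 0.39. A moderated F test of any difference among the 3 triglycerides called 16 genes (0.206%), and all 16 were also called for the slope.

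The 9 genes of the first pair included 2 that the slope did not call. Iigp1, an interferon-induced GTPase, was higher after trilinolein than after triolein by 0.71 (adjusted p = 0.0427), and its trilinolenin hearts, at 9.56, 9.72, 9.80 and 9.45, overlapped both groups. Tagln, the smooth muscle protein transgelin and itself 1 of the 7 smooth muscle markers tested, was lower by 0.91 (adjusted p = 0.0433). Of the other 7, Slc46a3 (0.78), Fosl2 (0.92) and Art5 (0.71) were higher and Perm1 (-0.52) and Tpm2 (-0.57) lower.

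The departure from a straight line, trilinolein against the mean of both ends, was called in 0 genes (0%) by limma, with 253 at an unadjusted p under 0.05. Tagln (-0.59), Comp, a matrix protein (-0.71), and Iigp1 (0.45) had the smallest p. Among the 66 genes of the slope, whose slopes rest on the ends, the trilinolein mean lay between the ends in 63, against 46% of all genes. Choosing genes whose ends lie far apart favours a middle mean between them, so this count is a description only. The first step was larger than the second in 51 of 66 (77.3%), against 55.1% of all genes. At trilinolein the median called gene had covered 68.6% of the way from triolein to trilinolenin, and the median of all genes was 58.5%. The same hearts chose the genes and gave these shares, so they too only describe the called genes. Art5 (93.9%), Ccrl2 (90.5%) and Fosl2 (88.8%) were nearly complete at 2 double bonds, Hmox1 (69.1%) and Alas1 (65.8%) lay between, and Lrrc3b (40.0%), Kpna2 (40.7%) and Dnajb5 (42.3%) moved more in the second step. Nt5e, which makes adenosine outside cells, moved almost entirely in the second step (0.804%) and was singled out after its values were seen.

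**Figure D4:**
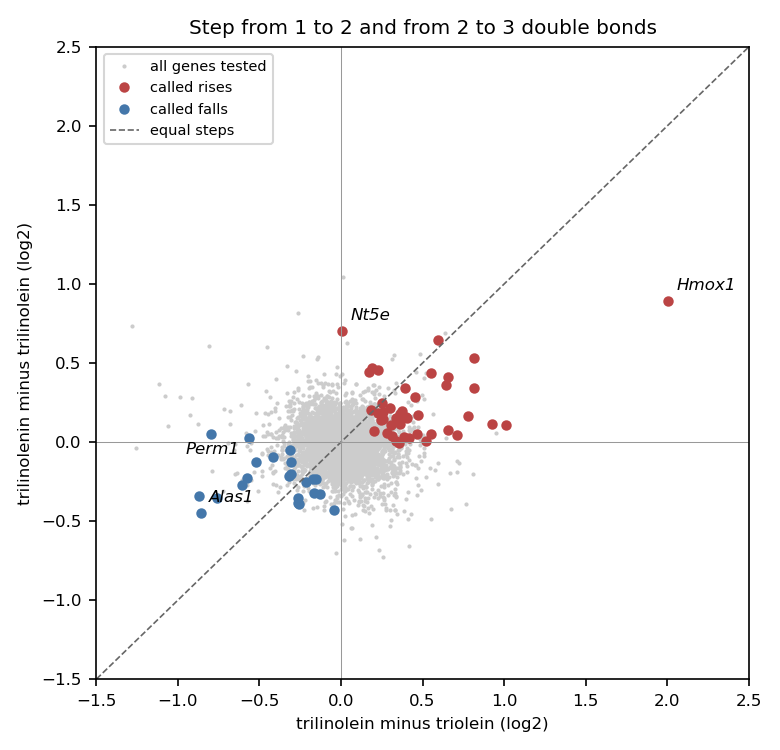
Difference of trilinolein from triolein (horizontal) against trilinolenin from trilinolein (vertical), both log2, for all genes tested (grey) and the called rises (red) and falls (blue); the dashed line marks equal steps. The 2 axes share the trilinolein group, so they are not independent. Of the 66 called genes 51 lie nearer the horizontal axis, with a larger first step.

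The control hearts took no part in the slope. The control mean was nearer to triolein than to trilinolenin in 62 of the 66 genes (93.9%), against 61.3% of all genes tested. The tridocosahexaenoin mean lay on the same side of triolein as trilinolenin in 62 of 66 (93.9%), against 69.4% of all genes, and beyond trilinolenin in 8 (12.1%), against 30.5%. These differences share the triolein hearts, and the 66 genes were chosen by how far their trilinolenin hearts lay from triolein. A mean beyond trilinolenin is made rarer by that choice, so the shares are a description only. For Hmox1 the control, triolein, trilinolein, trilinolenin and tridocosahexaenoin means were 5.45, 5.39, 7.39, 8.29 and 8.12, but the last of these turns on 1 heart. The tridocosahexaenoin hearts stood at 9.11, 8.67, 8.68, 5.06 and 9.08, and without replicate 4 their mean was 8.88, above that of trilinolenin. Replicate 4 was the lowest of its group in other rises too, among them Fam214a, Arrdc3 and Pnpla7, but not in Osgin1. In the falls Alas1 (9.92), Perm1 (9.55) and Fgf16 (5.42) that heart was the highest of its group, but not in Magi3 or Nr1d1. All tridocosahexaenoin means and shares given here include it. For Perm1 the same order gave 9.42, 9.30, 8.78, 8.65 and 9.20, and the tridocosahexaenoin mean stayed near triolein. Chain length and double bonds differ together there, and these values are set side by side only.

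The same slope was then taken in KO hearts, which the selection had not used. There 42 genes were called (0.54%; 23 rises, or 0.296%, and 19 falls, or 0.244%), and 1022 had an unadjusted p under 0.05. Of the 66 WT genes 63 had the same sign in KO (95.5%, against 63.9% of all genes), 45 of them at an unadjusted p under 0.05 (68.2%, against 10.8%). Both genotypes called 13 genes with the same sign, 19.7% of the WT calls and 30.95% of the KO calls. These were the rises Hmox1, Rasd1, Chac1, Fam214a, Arrdc3, Aox1, Art1, Etfbkmt, Neat1 and Tspyl4 and the falls Alas1, Magi3 and Rasl11b. The slope of Hmox1 was 1.51 ± 0.19 in KO (adjusted p = 0.00111) and that of Rasd1 0.62 ± 0.07 (adjusted p = 0.000800), nearly those of WT. Alas1 fell in KO by 0.31 (adjusted p = 0.0195).

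The difference between the WT and KO slopes was called in 0 genes (0%) by limma, with 339 at an unadjusted p under 0.05 and a smallest adjusted p of 0.197. In 59 of the 66 genes the WT slope was the larger in size, which the choice of genes by their WT slope favours. Cdkn1b had a KO slope of 0.00 ± 0.06 and a difference of 0.28 ± 0.08, Pnpla7 a KO slope of 0.22 ± 0.09 and a difference of 0.45 ± 0.15, and Perm1 a KO slope of -0.15 ± 0.04 and a difference of -0.17 ± 0.06. None of these differences was called. Tpm2 had a KO slope of 0.27 ± 0.12, opposite in sign to that in WT, with a difference of -0.54 ± 0.14 (adjusted p = 0.599). The 7 smooth muscle markers tested had a median slope of -0.12 in WT and 0.12 in KO, where Tagln had a slope of 0.43 and Myh11 one of 0.55, neither called, and their part in the Tpm2 difference was not tested. The smallest p belonged to Tmem71 (0.40 ± 0.08), Cyp4b1, a cytochrome P450 (0.24 ± 0.05), and Myh11, the smooth muscle myosin (-0.83 ± 0.18), each with an adjusted p of 0.197.

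**Figure D5:**
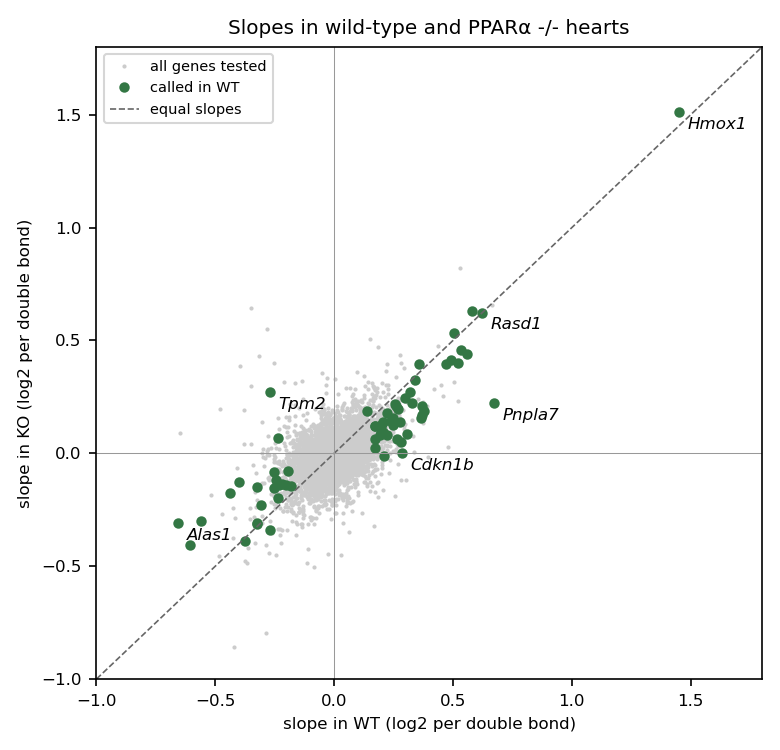
Slope per double bond in WT (horizontal) and KO hearts (vertical), both log2, for all genes tested (grey) and the 66 genes called in WT (green), with the line of equal slopes. Of the 66, 63 have the same sign in both genotypes, and Hmox1 is farthest out at 1.45 and 1.51.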

How the data were processed

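RNA of 55 mouse hearts had been hybridised to Affymetrix arrays, 1 per heart. The authors deposited log2 signals per probe set, made with GCRMA 2.2.0 per the submitters' processing notes, a method of background correction, quantile normalisation and probe summary. Scanner software is not given in the sources used here. Quantile normalisation gives all arrays the same distribution, so a shift of most genes would not show, and low levels are compressed.

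Of 45101 probe sets, 34958 carried 1 gene symbol, 932 several and 9211 none in the platform annotation, and those without exactly 1 were not used. Of the 34958, 34754 matched the gene table by Entrez identifier. For each of 18194 genes (9012 with several probe sets) the probe set of highest mean signal (all 55 arrays) stood for the gene. At most 0.208% of values were identical between any pair of arrays.

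One mean per triglyceride was fitted in R 4.3.3 with limma 3.58.1 to the 13 WT arrays (10 residual and 3.58 prior degrees of freedom), to the 15 KO arrays, and to both sets for the difference of slopes. Genes had to exceed 20 on the linear scale in at least 4 of the 13 arrays. Fold counts use 1.5-fold. The fit was tested on simulated data. Marker and quality measures were compared by exact two-sided permutation tests over all assignments of the 13 arrays. The number of arrays limits the precision.

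The arrays, lists and tests were chosen with earlier results of these data known. Named genes are the 12 largest called rises and 12 largest called falls, up to 4 called genes of each sign per pair and per list, the 3 smallest p-values where a comparison had no call, and the index genes bright enough to test. One item is not reported here. Genes with only clone or model names are counted, not named. Promoter windows are RefSeq's, GRCm38.p6, and matched 6396 of the 7779 genes by symbol. Alternatives were other filters, probe set rules, normalisation, weights, priors, fits and each array left out.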

Additional observations from a re-analysis of the deposited data

Results flagged for a closer look

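Single hearts stood apart from the rest of their group in 13 of 168 groups of values examined (7.74%), where chance gives about 1 in 20. Each had a gap to its nearest neighbour that was large for the range of its group.

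In triolein replicate 3 the highest values were those of Angptl4 (9.46, others 7.85 to 8.02), Ucp3 (7.83, others 7.19 to 7.22) and Ccng2 (8.66, others 8.21 to 8.25). In triolein replicate 1 Art5 was high at 6.04, and in triolein replicate 4 Tmem71 was low at 6.87 and the Actb 3′ minus 5′ difference low at 0.604.

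Trilinolein replicate 5 was highest for Pnpla7 (7.64, others 6.53 to 6.79) and Plin2 (9.41) and lowest for Fgf16 (4.14, others 4.93 to 5.13). Rrad was low in trilinolein replicate 2 (8.87), Sesn1 in trilinolein replicate 1 (10.93) and Nr4a1 in trilinolein replicate 3 (5.42, others 6.77 to 7.27). Atrial muscle markers were low in trilinolenin replicate 1 (8.38, others 9.88 to 10.18).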

How the results depend on the processing

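The 66 slopes kept their sign in every setting in which they were tested, which is no separate support. Filters, priors and the replicate block leave a slope unchanged. In 65 of the 66 the ends do not overlap, so leaving out 1 heart cannot turn the sign. The number called moved. That number was 23 with no filter, 24 with array weights, 24 with the replicate block, 122 with a trended and robust prior and 12 without the 3 hearts of lowest atrial marker level (added after seeing the data). Trilinolein against triolein gave 2 with no filter, 15 above 100 on the linear scale, 20 with the trended prior, 3 with all 12 groups, and 0 with the replicate block or without the 3 hearts. Trilinolenin against trilinolein gave 1 above 100 and 1 with the trended prior. Trilinolenin against triolein gave 7 with no filter, 11 with weights, 60 with the trended prior, 8 with all groups, and 1 with the replicate block or without the 3 hearts. The F test gave 9, 29 above 100, 28 with the mean of probe sets, 10 with weights, 55 with the trended prior, and 1 with the replicate block or without the 3 hearts. The KO slope gave 67 with weights, 79 with the trended prior or all groups, and 22 with the replicate block. With the replicate block the adjusted p was 0.0505 for Hmox1 (slope 1.45) and 0.0627 for Cdkn1b. Samples share only a replicate number: same-numbered hearts correlated at -0.231 to 0.207 over 12 pairs, 5 above 0.1, and 4 of 13 hearts best with their own number.

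With 1 heart left out, calls ranged from 11 to 68 (WT slope), 15 to 67 (KO slope), 1 to 10, 0 to 1 and 4 to 17 (trilinolein against triolein, trilinolenin against trilinolein, trilinolenin against triolein), 3 to 22 (F test), and 0 to 0 for the departure and for the difference of slopes. With 1 heart left out the uncalled slopes of Acot1 (-0.176 to 0.0080, the latter without trilinolenin replicate 4), Nr4a1 (-0.227 to 0.066, the latter without that heart) and Ucp3 (-0.126 to 0.014, the latter without triolein replicate 3) changed sign. With the median of markers the slope turned for cardiomyocyte (0.0059), endothelial (0.049) and macrophage markers (0.033). Without 1 heart, slopes ranged from -0.41 to -0.11 (atrial), -0.17 to -0.12 (smooth muscle), -0.0048 to 0.0056 (cardiomyocyte), -0.050 to 0.0095 (endothelial), -0.089 to 0.020 (macrophage), -0.039 to 0.0054 (adipocyte), -0.068 to -0.027 (Actb 3′ minus 5′) and 0.0052 to 0.021 (Gapdh 3′ minus 5′), and fibroblast markers stayed below 0. The cause of these moves was not tested, beyond fewer arrays where hearts were left out. Signals near the brightness minimum carry sizes that are not exact.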
